A study of Mus musculus with 23 samples.

Results

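The comparison set the 17 arrays of aortic endothelial cells kept in plasma of ApoE-deficient mice against the 6 arrays of the same cells kept in wildtype plasma, which together are all 23 arrays of the series. The deficient side is the mean of 3 group means, ApoE-KO (5 arrays), ApoE-Stab1-KO (6 arrays) and ApoE-Stab2-KO (6 arrays), so each plasma counted equally. A difference of a gene is this mean minus the wildtype mean, on the log2 scale, and 24704 genes with a symbol were tested, of which 192 (0.777%) were called in either direction at an adjusted p under 0.05. The cells were primary mouse aorta endothelial cells (MAOEC), bought from a supplier, grown to confluence with fetal calf serum and then kept for 48 h in medium with 10% mouse plasma in place of the serum. The mice that gave the plasma carried the knockouts, the cells did not, and the labels give the strain C57BL/6J for every array. The donors of ApoE-KO plasma lacked apolipoprotein E, those of ApoE-Stab1-KO plasma lacked it together with Stabilin-1, and those of ApoE-Stab2-KO plasma lacked it together with Stabilin-2. The 3 kinds of knockout donor had been on Western diet for 8 weeks. No diet is labelled for the wildtype donors, so ApoE deficiency and diet cannot be told apart. The labels do not say whether the arrays of a group came from separate cultures or plasma donors, or whether plasma was pooled, so the p-values cover only how far these samples lie apart, and that may be technical spread.

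Apolipoprotein E is the ligand by which the liver takes up remnants of triglyceride-rich lipoproteins, and mice without it have high plasma cholesterol, above all on Western diet. Cells sense their own cholesterol in the membrane of the endoplasmic reticulum, where the INSIG proteins hold SCAP and the transcription factor SREBP2 back while sterol is plentiful, and release them when it is scarce. SREBP2, usually together with the CCAAT-binding factor NF-Y, then switches on the enzymes of cholesterol synthesis and the LDL receptor, while oxysterols switch on the cholesterol exporters through the LXR receptors.

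Promoter sequences of 4 cholesterol synthesis genes are shown because this pathway carries the clearest difference described below, and 2 promoters of cornified envelope genes because Sprr1a showed the largest rise. Each window holds 300 bases, most of them before and the rest just past the start of the gene, 5′ to 3′ on the strand of the gene, and comes from RefSeq on GRCm38.p6. In the first 4, capitals mark CCAAT, or ATTGG where CCAAT lies on the other strand, and in Hmgcs1 also a match to TCACNCCAC, a form of the sterol element. The windows are chr13:119690101-119690400, plus strand, for Hmgcs1; chr8:64733529-64733828, minus strand, for Msmo1; chr5:4104648-4104947, minus strand, for Cyp51; and chr10:76531355-76531654, plus strand, for Lss.
Hmgcs1: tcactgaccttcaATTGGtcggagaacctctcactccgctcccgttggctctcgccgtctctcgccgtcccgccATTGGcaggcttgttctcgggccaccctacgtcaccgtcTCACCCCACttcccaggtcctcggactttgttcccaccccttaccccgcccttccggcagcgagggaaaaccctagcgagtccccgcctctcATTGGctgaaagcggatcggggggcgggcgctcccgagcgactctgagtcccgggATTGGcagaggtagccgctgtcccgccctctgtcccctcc
Msmo1: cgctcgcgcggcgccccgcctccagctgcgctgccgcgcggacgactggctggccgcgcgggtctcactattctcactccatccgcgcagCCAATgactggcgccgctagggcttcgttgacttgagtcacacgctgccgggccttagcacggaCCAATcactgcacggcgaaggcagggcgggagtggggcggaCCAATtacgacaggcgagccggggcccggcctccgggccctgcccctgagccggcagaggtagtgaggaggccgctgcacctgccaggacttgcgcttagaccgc
Cyp51: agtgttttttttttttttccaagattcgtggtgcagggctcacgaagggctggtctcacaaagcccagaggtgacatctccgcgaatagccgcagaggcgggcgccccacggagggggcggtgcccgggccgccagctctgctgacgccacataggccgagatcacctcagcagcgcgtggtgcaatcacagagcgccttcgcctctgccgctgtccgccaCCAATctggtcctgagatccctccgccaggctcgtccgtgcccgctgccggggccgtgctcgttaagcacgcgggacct
Lss: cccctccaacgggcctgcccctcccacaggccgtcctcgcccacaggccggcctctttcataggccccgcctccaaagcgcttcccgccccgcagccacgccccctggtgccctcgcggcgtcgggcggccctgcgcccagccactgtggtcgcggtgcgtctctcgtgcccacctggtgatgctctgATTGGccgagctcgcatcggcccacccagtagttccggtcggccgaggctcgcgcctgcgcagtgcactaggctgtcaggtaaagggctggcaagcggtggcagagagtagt
CCAAT was found, on either strand, in the windows of all 14 cholesterol synthesis genes of the measured list of 17 that the promoter table held, against 41.1% of the 27025 genes of the table. It occurred 4 times in the Hmgcs1 window, 3 times in that of Msmo1 and 1 time each in those of Cyp51 and Lss. Among all genes called higher with a promoter entry, 47 of 94 held it, and among those called lower 26 of 53. TCACNCCAC was found in 1 of the 14 windows, against 1.44% of the table. A match is a description of the letters in this window, and binding was not measured.

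In the 2 windows of the cornified envelope genes, capitals mark TGANTCA, the form bound by the AP-1 factors. They are chr3:92485832-92486131 for Sprr1a and chr3:92573686-92573985 for Ivl, both on the minus strand.
Sprr1a: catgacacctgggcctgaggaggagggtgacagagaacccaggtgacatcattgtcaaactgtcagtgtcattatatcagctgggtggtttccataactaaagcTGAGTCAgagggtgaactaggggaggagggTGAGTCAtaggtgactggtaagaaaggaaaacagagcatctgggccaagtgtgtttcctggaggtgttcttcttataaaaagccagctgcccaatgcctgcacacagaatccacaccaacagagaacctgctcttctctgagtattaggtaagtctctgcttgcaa
Ivl: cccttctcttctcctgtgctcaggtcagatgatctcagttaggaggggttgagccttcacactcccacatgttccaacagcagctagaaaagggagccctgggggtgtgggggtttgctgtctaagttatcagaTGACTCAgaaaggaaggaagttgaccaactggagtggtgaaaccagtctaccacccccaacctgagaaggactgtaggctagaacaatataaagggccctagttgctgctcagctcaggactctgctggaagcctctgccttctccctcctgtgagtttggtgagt
TGANTCA, read on both strands, was found 2 times in the window of Sprr1a and 1 time in that of Ivl. It was present in 8.97% of the windows of the table, in 14 of the 94 windows of genes called higher and in 2 of the 53 windows of genes called lower.

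The deposited levels ran from 2.52 to 13.9 on the log2 scale with a median gene at 4.30, pairs of arrays correlated at 0.992 to 0.997 across genes, and no 2 arrays held identical values. The labelled cell type was checked against markers. All 25 genes of the endothelial identity list lay above the median gene, with a median level of 10.7, among them Cdh5 and Pecam1, which encode the junctional VE-cadherin and PECAM1. Of the markers of other cells, 6 of 10 smooth muscle, 7 of 10 fibroblast, 8 of 9 macrophage, 11 of 14 blood and 8 of 11 liver genes lay below the median gene. By definition as many of all genes lie below the median gene as above it. The median levels of these lists ran from 3.39 (blood) to 3.98 (fibroblast). Their highest members stood at 11.2 (macrophage), 10.3 (smooth muscle), 6.3 (blood), 6.1 (fibroblast) and 5.2 (liver). Of the 5 measured lymphatic endothelial genes only 2 lay below the median gene, and the median level of that list was 5.0. Lyve1, a receptor of lymphatic and some other endothelium, stood high at 12.7 and Prox1, the factor that defines lymphatic endothelium, low at 3.27. None of these marker genes of other cells was called in either direction (limma, adjusted p of 0.05 or above for all). With unadjusted p below 0.05 stood 2 fibroblast and 1 macrophage genes higher and 1 smooth muscle, 1 macrophage and 2 blood genes lower. Among all genes, 10.9% passed that unadjusted threshold, and 5.51% of all genes were higher at it. The mean level of the macrophage markers was 4.35 to 4.44 in the ApoE-KO arrays, 4.32 to 4.38 in the ApoE-Stab1-KO arrays, 4.34 to 4.40 in the ApoE-Stab2-KO arrays and 4.28 to 4.41 in the wildtype arrays.

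With ApoE-deficient plasma, 120 of the 24704 genes were higher (0.486%) and 72 lower (0.291%), called at an adjusted p under 0.05. Without adjustment, 2692 (10.9%) passed 0.05. The counts of called list members below are to be set beside these shares of all genes. The differences were small. The median called gene differed by 0.26 on the log2 scale, and 4 called genes differed by 1.5-fold or more. Higher were Sprr1a, a protein of the cornified envelope of squamous epithelium, and Sema3c, a secreted guidance cue, and lower the vomeronasal receptor gene Vmn1r127 and the long non-coding RNA Gm13609. In 25 genes all 17 ApoE-deficient arrays lay above all 6 wildtype arrays (0.101% of the genes), and 23 of these were called. In 17 genes all lay below (0.0688%), and 15 of these were called. The median difference over all genes was 0.0018, and of the called genes 180 were protein-coding by class, 116 higher and 64 lower. The wildtype arrays bore on the count: 102 genes were called without wildtype replicate 1 (63 higher, 39 lower), 102 without replicate 5 (64 higher, 38 lower), and 45 lower without replicate 3. The genes that kept their call in every fit with 1 array left out numbered 75, and those that kept it as each knockout plasma was left out in turn numbered 46, 24 higher and 22 lower.

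**Figure D1:**
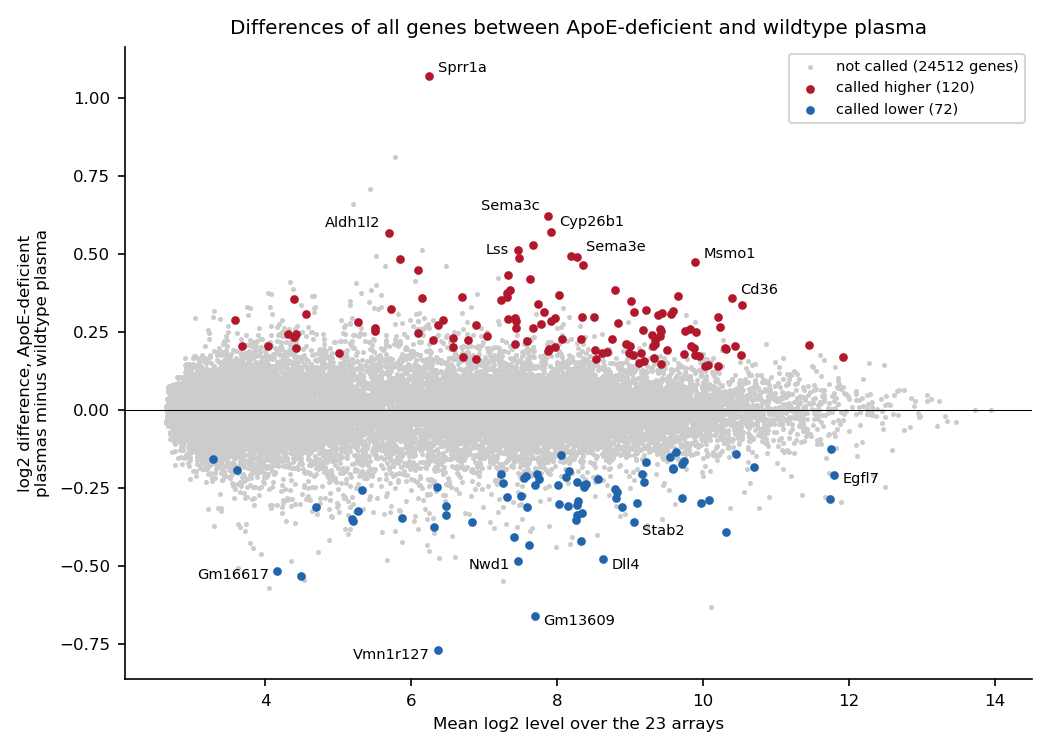
Difference of each of the 24704 genes between ApoE-deficient and wildtype plasma (log2, vertical axis) against its mean log2 level over the 23 arrays (horizontal axis), with the 120 genes called higher in red, the 72 called lower in blue and the rest in grey. Most called genes lie within 0.5 of 0, and Sprr1a stands highest at 1.07.

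Enzymes of cholesterol synthesis were higher with ApoE-deficient plasma. Of the 17 measured genes of the list 9 rose, 0 fell and 8 did not pass, against 0.486% of all genes called higher, and all 17 differences were positive with a median of 0.30. The 9 genes lie at the start of the pathway and in its steps from squalene on. They are Hmgcs1, which makes HMG-CoA, the squalene epoxidase Sqle, the lanosterol synthase Lss and the lanosterol demethylase Cyp51. The others are the sterol demethylation enzymes Msmo1, Nsdhl and Hsd17b7, the desaturase Sc5d and the reductase Dhcr7. No listed enzyme between HMG-CoA and squalene was called. The mean level over the list was 7.95 to 8.13 in the ApoE-KO arrays, 7.77 to 7.92 in the ApoE-Stab1-KO arrays and 7.82 to 7.90 in the ApoE-Stab2-KO arrays, against 7.54 to 7.70 in the wildtype arrays. On this mean every ApoE-deficient array lay above every wildtype array.

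Msmo1 had log2 levels of 10.08, 10.18, 10.25, 10.27 and 10.40 in the 5 ApoE-KO arrays. Its lowest, median and highest levels were 9.77, 9.90 and 10.11 in the ApoE-Stab1-KO arrays, 9.79, 9.93 and 10.07 in the ApoE-Stab2-KO arrays and 9.45, 9.59 and 9.61 in the wildtype arrays. All 17 ApoE-deficient arrays were above the highest wildtype array, and most ApoE-KO arrays also above the other knockout arrays. The difference was 0.47 ± 0.05 (SE, adjusted p = 1.08e-05), or 1.39-fold.

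Lss, which closes the sterol ring, had 7.65, 7.70, 7.77, 7.89 and 7.95 in the ApoE-KO arrays, and lowest, median and highest levels of 7.33, 7.60 and 7.74 in the ApoE-Stab1-KO arrays, 7.37, 7.40 and 7.66 in the ApoE-Stab2-KO arrays and 7.03, 7.09 and 7.17 in the wildtype arrays. Cyp51 had 8.31, 8.51, 8.52, 8.55 and 8.67 in the ApoE-KO arrays, and lowest, median and highest levels of 8.07, 8.20 and 8.37 in the ApoE-Stab1-KO arrays, 8.22, 8.27 and 8.34 in the ApoE-Stab2-KO arrays and 7.64, 7.89 and 8.00 in the wildtype arrays. In neither gene did any ApoE-deficient array overlap the wildtype arrays. Lss rose by 0.51 ± 0.06 (adjusted p = 1.84e-05) and Cyp51 by 0.49 ± 0.05 (1.72e-05). Sqle, the epoxidase that controls flow into the sterol branch, rose by 0.31 ± 0.04 (0.000337), again with all 17 arrays above wildtype. Nsdhl rose by 0.39 ± 0.05 (0.000367), Hsd17b7 by 0.42 ± 0.08 (0.00852) and Sc5d by 0.30 ± 0.05 (0.00132).

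The size of this rise was not the same in the 3 plasmas. Hmgcs1 had 9.79, 9.82, 9.88, 9.92 and 10.06 in the ApoE-KO arrays. Its lowest, median and highest levels were 9.39, 9.60 and 9.68 in the ApoE-Stab1-KO arrays, 9.44, 9.56 and 9.64 in the ApoE-Stab2-KO arrays and 9.25, 9.37 and 9.47 in the wildtype arrays. Thus the ApoE-KO arrays stood above all other arrays, and those of the double knockouts overlapped the upper wildtype arrays in part, with 15 of the 17 above the highest wildtype array. The difference from wildtype was 0.32 ± 0.04 over the 3 plasmas (adjusted p = 0.000409), and by plasma 0.53 for ApoE-KO, 0.22 for ApoE-Stab1-KO and 0.19 for ApoE-Stab2-KO. These 3 differences share the wildtype arrays. The test of the difference among the 3 plasmas, a moderated F-test that does not use the wildtype mean, called Hmgcs1 (adjusted p = 0.0181). ApoE-Stab1-KO minus ApoE-KO was -0.31 (95% interval -0.43 to -0.19) and ApoE-Stab2-KO minus ApoE-KO -0.34 (-0.46 to -0.22).

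Dhcr7, whose enzyme makes cholesterol from 7-dehydrocholesterol, was the other list member that differed among the plasmas (adjusted p = 0.0181). It had 7.93, 8.06, 8.21, 8.22 and 8.27 in the ApoE-KO arrays, and lowest, median and highest levels of 7.68, 7.75 and 7.83 in the ApoE-Stab1-KO arrays, 7.77, 7.91 and 8.04 in the ApoE-Stab2-KO arrays and 7.63, 7.74 and 7.84 in the wildtype arrays. The ApoE-Stab1-KO arrays thus lay within the wildtype range, at a difference of 0.01, against 0.39 for ApoE-KO and 0.16 for ApoE-Stab2-KO. Its call against wildtype was marginal (0.19 ± 0.05, adjusted p = 0.0472) and was lost in 18 of the 23 fits with 1 array left out, with adjusted p up to 0.153. Msmo1 just missed the F-test (adjusted p = 0.0536) at differences of 0.69, 0.36 and 0.38 from wildtype in ApoE-KO plasma, ApoE-Stab1-KO plasma and ApoE-Stab2-KO plasma. The median over the list was 0.45, 0.21 and 0.22 in the same order. Without the ApoE-KO group, the list median was 0.21 and 5 of the 17 genes were called higher, with adjusted p of 0.0574 for Hmgcs1, 0.0511 for Sc5d, 0.0819 for Hsd17b7 and 0.55 for Dhcr7.

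Of the 8 list genes that did not pass, Fdft1, the squalene synthase, was nearest, at 0.31 ± 0.07 (adjusted p = 0.0504), and the mevalonate kinase Mvk and decarboxylase Mvd stood at 0.19 ± 0.07 and 0.17 ± 0.06. A further 3 genes of the pathway were not analysed here.

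**Figure D2:**
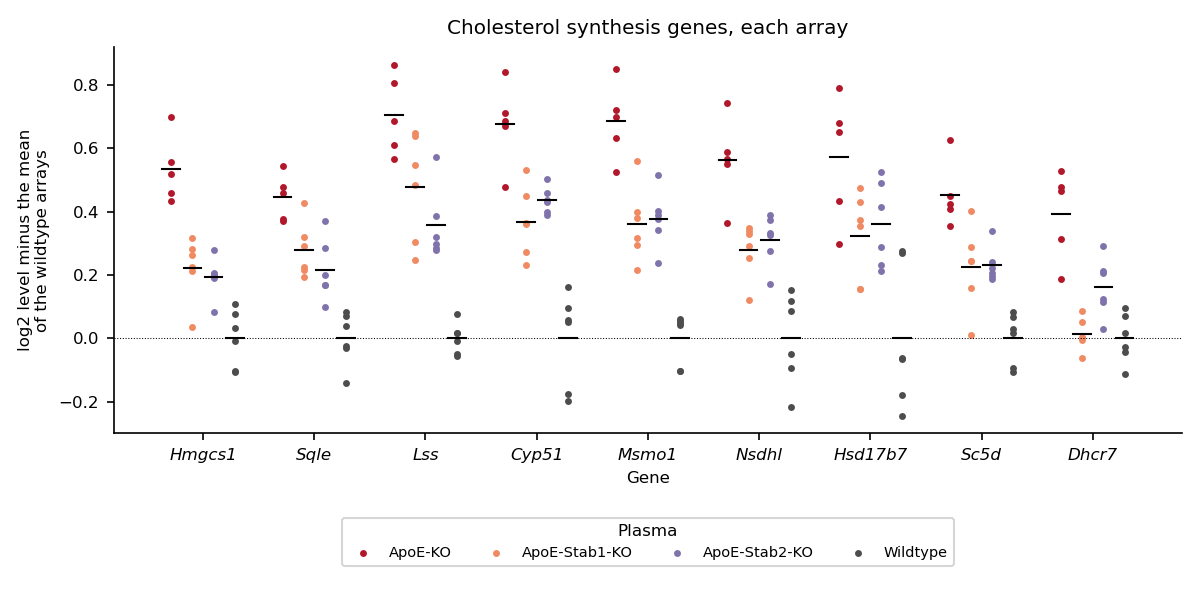
Log2 level of the 9 called cholesterol synthesis genes in each array minus the mean of the wildtype arrays (vertical axis), for ApoE-KO plasma (5 arrays) and ApoE-Stab1-KO, ApoE-Stab2-KO and wildtype plasma (6 each), with bars at the group means. The ApoE-KO arrays stand highest in each gene by mean, and the ApoE-Stab1-KO arrays of Dhcr7 lie within the wildtype range.

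The sterol-sensing machinery moved little. Of 9 measured genes of sterol sensing and LDL uptake 1 rose, and the list median was 0.025. The gene that rose was Insig1, which retains SCAP in the endoplasmic reticulum and is itself an SREBP target. Insig1 had 10.34, 10.36, 10.50, 10.53 and 10.55 in the ApoE-KO arrays, and lowest, median and highest levels of 9.98, 10.24 and 10.38 in the ApoE-Stab1-KO arrays, 10.18, 10.21 and 10.26 in the ApoE-Stab2-KO arrays and 9.85, 10.02 and 10.13 in the wildtype arrays. The ApoE-KO and the ApoE-Stab2-KO arrays did not overlap the wildtype arrays, and 15 of the 17 ApoE-deficient arrays were above the highest wildtype array. The difference was 0.30 ± 0.05 (adjusted p = 0.00225), which lost its call without the ApoE-KO group (adjusted p = 0.0978). Srebf2, which encodes SREBP2, stood at 0.16 ± 0.05 (adjusted p = 0.14).

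Fatty acid synthesis genes were called higher in 4 of 18 cases (all genes: 0.486%) and lower in 0, with a median of 0.06. They were Elovl6, which elongates palmitate (0.30 ± 0.05, adjusted p = 0.00367), the desaturases Fads2 (0.25 ± 0.05, 0.00718) and Fads3 (0.22 ± 0.04, 0.00726), and Scd1, which makes oleate from stearate (0.31 ± 0.06, 0.0206). Elovl6 had 8.55, 8.64, 8.66, 8.83 and 8.88 in the ApoE-KO arrays, and lowest, median and highest levels of 8.41, 8.50 and 8.64 in the ApoE-Stab1-KO arrays, 8.37, 8.50 and 8.69 in the ApoE-Stab2-KO arrays and 8.17, 8.29 and 8.41 in the wildtype arrays. Only the ApoE-KO arrays were wholly above wildtype. All 4 calls were lost without the ApoE-KO group (adjusted p from 0.052 for Elovl6 to 0.201 for Scd1). Scd1 also lost its call without wildtype replicate 1 (0.0598) or replicate 3 (0.0756), and without the ApoE-Stab2-KO group (0.076). Fads1, Elovl5 and Scd2, of the same list, stood at 0.12, 0.11 and 0.15 and did not pass.

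On the side of cholesterol export, 1 of 12 genes fell and 0 rose, with a median of 0.01. Abca1, the transporter that loads cellular cholesterol onto apolipoprotein A-I and an LXR target, had 7.73, 7.75, 7.89, 7.89 and 8.37 in the ApoE-KO arrays. At the lowest, the median and the highest array it had 8.11, 8.17 and 8.32 in the ApoE-Stab1-KO arrays, 8.01, 8.07 and 8.14 in the ApoE-Stab2-KO arrays and 8.29, 8.36 and 8.50 in the wildtype arrays. An ApoE-KO array, replicate 1, stood within the wildtype range, and 15 of the 17 were below it. Abca1 fell by 0.31 ± 0.06 (adjusted p = 0.0145), and the adjusted p was 0.0676 without the ApoE-Stab2-KO group. Smpdl3a, another LXR target, stood at -0.31 ± 0.08 (adjusted p = 0.0713), and the LXR target Lpcat3 and the lysosomal cholesterol transporter Npc1 at 0.12 and 0.13, none of them past the test.

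Genes of lipid uptake and fatty acid oxidation were called in 4 of 24 cases (all genes: 0.777%). Of these 3 were higher and 1 lower, and the list median was 0.04. Cd36, the scavenger receptor and fatty acid translocase, had 10.24, 10.40, 10.50, 10.51 and 10.56 in the ApoE-KO arrays, and lowest, median and highest levels of 10.27, 10.57 and 10.75 in the ApoE-Stab1-KO arrays, 10.44, 10.47 and 10.59 in the ApoE-Stab2-KO arrays and 10.04, 10.12 and 10.23 in the wildtype arrays. No ApoE-deficient array overlapped the wildtype arrays, and the rise was 0.36 ± 0.06 (adjusted p = 0.00184). By plasma its differences were 0.32, 0.40 and 0.36 with ApoE-KO plasma, ApoE-Stab1-KO plasma and ApoE-Stab2-KO plasma, and the F-test did not call it (adjusted p = 0.874). ApoE-Stab1-KO minus ApoE-KO was 0.08 (95% interval -0.07 to 0.23).

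Angptl4, a secreted inhibitor of lipoprotein lipase, rose by 0.27 ± 0.05 (adjusted p = 0.0031), with an adjusted p of 0.064 without the ApoE-Stab2-KO group. Lrp8, the apolipoprotein E receptor 2, rose by 0.19 ± 0.03 (0.00579), with 0.0968 without the ApoE-KO group. Gpihbp1, which carries lipoprotein lipase to the luminal face of capillary endothelium, had 7.67, 7.90, 7.93, 7.95 and 8.14 in the ApoE-KO arrays. Its lowest, median and highest levels were 7.64, 7.90 and 8.03 in the ApoE-Stab1-KO arrays, 7.88, 8.04 and 8.11 in the ApoE-Stab2-KO arrays and 8.06, 8.26 and 8.37 in the wildtype arrays. Of the 17 ApoE-deficient arrays 13 lay below the lowest wildtype array, and Gpihbp1 fell by 0.30 ± 0.06 (0.0135). The lipase Lpl itself stood at 0.33 ± 0.11 (0.223), and the fatty acid binding protein Fabp4 at 0.14 ± 0.04 (0.0691), neither past the test.

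Among the scavenger receptors and the genes knocked out in the donors, 1 of 19 rose and 1 fell, with a median of 0.03. Stab2, the hyaluronan and scavenger receptor best known from sinusoidal endothelium, fell in these aortic cells. It had 8.88, 8.93, 9.03, 9.07 and 9.25 in the ApoE-KO arrays, and lowest, median and highest levels of 8.79, 8.92 and 9.07 in the ApoE-Stab1-KO arrays, 8.81, 8.88 and 9.14 in the ApoE-Stab2-KO arrays and 9.24, 9.32 and 9.42 in the wildtype arrays. A single ApoE-KO array reached the wildtype range. The fall was 0.36 ± 0.05 (adjusted p = 0.00102), and the differences by plasma were -0.29, -0.39 and -0.40 for ApoE-KO plasma, ApoE-Stab1-KO plasma and ApoE-Stab2-KO (F-test adjusted p = 0.75).

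Stab1 stood at -0.13 ± 0.04 (adjusted p = 0.183), with 11 of 17 ApoE-deficient arrays below the lowest wildtype array, and did not pass. Apoe was -0.04 ± 0.07 at a mean level of 5.16. The genes of known Stabilin ligands, Tgfbi, Postn and Reln, stood at -0.03, 0.08 and 0.06 and were not called. Colec12, a scavenger receptor with a C-type lectin domain, rose by 0.25 ± 0.05 (adjusted p = 0.0209), and missed the threshold without wildtype replicate 3 (0.0659) or 5 (0.0868), without the ApoE-Stab1-KO group (0.13) and without the ApoE-Stab2-KO group (0.0937).

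In the list of endothelial identity genes 0 of 25 rose and 4 fell (all genes: 0.291%). Of the differences 19 were negative and 6 positive, running from -0.28 to 0.21, and the median was -0.07. At an unadjusted p under 0.05 in limma, 1 gene of the list stood higher and 9 lower. Among all genes, 10.9% passed that threshold. Mcam, the adhesion molecule CD146, had 9.60, 9.62, 9.64, 9.68 and 9.74 in the ApoE-KO arrays, and lowest, median and highest levels of 9.59, 9.67 and 9.71 in the ApoE-Stab1-KO arrays, 9.49, 9.62 and 9.71 in the ApoE-Stab2-KO arrays and 9.87, 9.92 and 9.99 in the wildtype arrays. All 17 ApoE-deficient arrays were below the lowest wildtype array, and Mcam fell by 0.28 ± 0.03 (adjusted p = 4.2e-05). Egfl7, a secreted endothelial matrix protein, fell by 0.21 ± 0.03 (0.00141) and the transcription factor Ets1 by 0.15 ± 0.03 (0.0307), both also without overlap. Fewer cells of a type and less RNA per cell cannot be told apart in such samples. Ets1 lost its call in 6 fits with 1 array left out (adjusted p up to 0.0943), and Emcn, the sialomucin endomucin, at -0.13 ± 0.03 (0.0452), in 19 (up to 0.143). Without the ApoE-KO group Ets1 (0.15) and Emcn (0.0996) were not called, nor without the ApoE-Stab2-KO group (0.107 and 0.188), and Emcn was not without the ApoE-Stab1-KO group (0.0682). The junction gene Cldn5 and the transcription factor Sox18 stood at -0.17 ± 0.05 and -0.26 ± 0.07 and did not pass. The mean level over the list was 10.22 ± 0.07 (SD, n = 5) in ApoE-KO, 10.25 ± 0.06 (n = 6) in ApoE-Stab1-KO and 10.29 ± 0.04 (n = 6) in ApoE-Stab2-KO arrays, against 10.32 ± 0.03 (n = 6) in wildtype arrays, and these ranges overlapped.

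In the list of angiogenesis and Notch genes 1 of 26 rose and 2 fell, with a median of -0.06. Dll4, the Notch ligand of tip and arterial endothelial cells, had 8.34, 8.46, 8.48, 8.61 and 8.72 in the ApoE-KO arrays. At the lowest, the median and the highest array it had 8.17, 8.43 and 8.66 in the ApoE-Stab1-KO arrays, 8.43, 8.59 and 8.69 in the ApoE-Stab2-KO arrays and 8.85, 9.02 and 9.05 in the wildtype arrays. No ApoE-deficient array overlapped wildtype, and Dll4 fell by 0.48 ± 0.06 (adjusted p = 8.95e-05). Pdgfb, the growth factor by which endothelium recruits pericytes, had 8.12, 8.16, 8.18, 8.28 and 8.31 in the ApoE-KO arrays, and lowest, median and highest levels of 8.05, 8.15 and 8.25 in the ApoE-Stab1-KO arrays, 8.10, 8.19 and 8.25 in the ApoE-Stab2-KO arrays and 8.38, 8.51 and 8.60 in the wildtype arrays. The groups were again apart, and the fall was 0.31 ± 0.04 (7.31e-05). Vegfa, the main growth factor of endothelial cells, rose by 0.29 ± 0.04 (0.000746) in all 17 arrays above wildtype. The receptors Notch1 and Notch4 stood at -0.21 ± 0.05 (0.0685) and -0.14 ± 0.04 (0.181), and the ligand Jag2 at -0.26 ± 0.07 (0.0644), none past the test. Mfng, a glycosyltransferase that modifies Notch and was singled out after its value was seen, fell by 0.24 ± 0.04 (0.00112).

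Of 22 semaphorins and plexins 2 rose and 1 fell, with a median of -0.02. Sema3e, a repellent guidance cue of endothelium, had 8.27, 8.40, 8.43, 8.48 and 8.49 in the ApoE-KO arrays, and lowest, median and highest levels of 8.17, 8.45 and 8.53 in the ApoE-Stab1-KO arrays, 8.32, 8.39 and 8.48 in the ApoE-Stab2-KO arrays and 7.79, 7.90 and 8.03 in the wildtype arrays. Sema3c had 7.98, 8.15, 8.15, 8.16 and 8.34 in the ApoE-KO arrays, and lowest, median and highest levels of 7.63, 7.95 and 8.13 in the ApoE-Stab1-KO arrays, 7.92, 8.05 and 8.16 in the ApoE-Stab2-KO arrays and 7.28, 7.42 and 7.57 in the wildtype arrays. Both were above wildtype in all 17 arrays. Sema3c rose by 0.62 ± 0.07 (adjusted p = 1.14e-05), or 1.54-fold, and Sema3e by 0.49 ± 0.05 (1.08e-05), or 1.40-fold. Sema3e differed from wildtype by 0.50, 0.49 and 0.48 in ApoE-KO plasma, ApoE-Stab1-KO plasma and ApoE-Stab2-KO plasma, and the 95% intervals of the differences among the plasmas lay within -0.14 to 0.12. Plxnd1, the receptor of Sema3e, fell by 0.18 ± 0.04 (0.0235), but missed the threshold without wildtype replicate 1 (0.103), 3 (0.0519) or 5 (0.0685), and without the ApoE-KO group (0.0981) or the ApoE-Stab2-KO group (0.106).

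**Figure D3:**
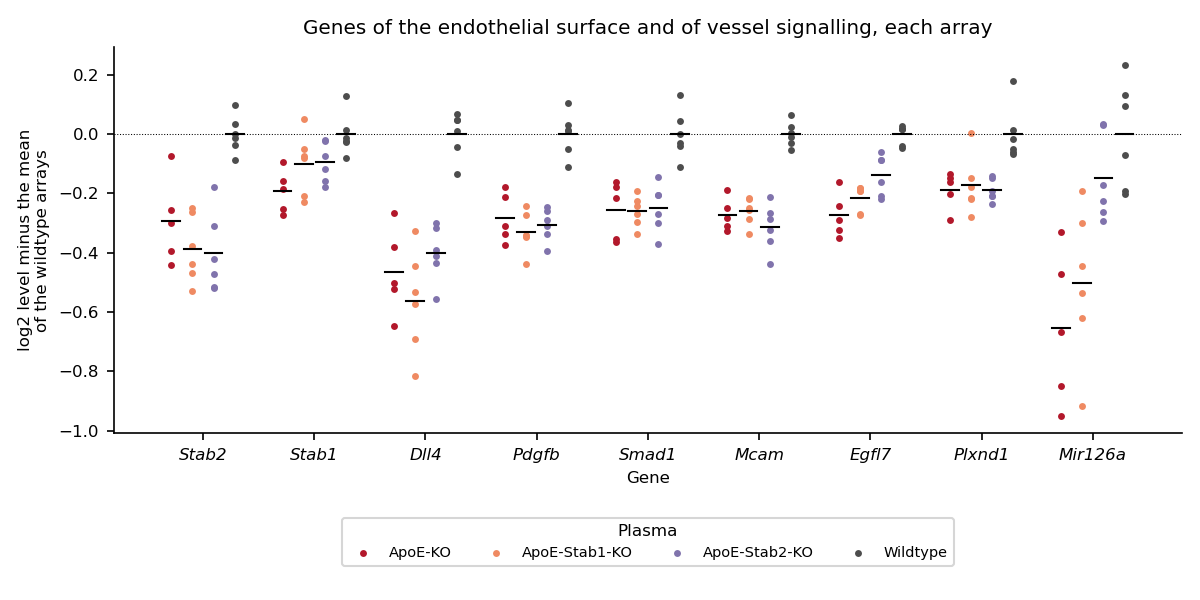
Log2 level of 9 genes of the endothelial surface and of vessel signalling in each array minus the mean of the wildtype arrays (vertical axis), for ApoE-KO plasma (5 arrays) and ApoE-Stab1-KO, ApoE-Stab2-KO and wildtype plasma (6 each), with bars at the group means. Dll4, Pdgfb, Smad1, Mcam and Egfl7 show no overlap with wildtype, Stab1 was not called, and the ApoE-Stab2-KO arrays of Mir126a overlap the wildtype arrays.

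Mir126a, the gene of the endothelial miR-126, lies inside Egfl7 and was singled out after its value was seen. Its mature strand is printed with the seed, bases 2 to 8, in capitals, from RefSeq at chr2:26591402-26591423, plus strand, on GRCm38.p6.
mmu-miR-126a-3p: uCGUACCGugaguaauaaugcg
The probe set named Mir126a had 6.98, 7.08, 7.26, 7.46 and 7.60 in the ApoE-KO arrays, and lowest, median and highest levels of 7.01, 7.44 and 7.74 in the ApoE-Stab1-KO arrays, 7.64, 7.73 and 7.96 in the ApoE-Stab2-KO arrays and 7.73, 7.94 and 8.16 in the wildtype arrays. The ApoE-KO arrays were all below wildtype, while the ApoE-Stab2-KO arrays overlapped it. The difference over the 3 plasmas was -0.43 ± 0.09 (adjusted p = 0.0242), and by plasma -0.65, -0.50 and -0.15 for ApoE-KO plasma, ApoE-Stab1-KO plasma and ApoE-Stab2-KO. The call was lost with the 17 arrays as 1 group (0.145), without the ApoE-KO group (0.196), and without wildtype replicate 1 (0.106), 4 (0.0742) or 5 (0.0868), and the F-test among the plasmas did not call it (0.177). The array does not tell the mature strand from its precursor, and whether the probe set also reads RNA of Egfl7 was not tested.

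Targets and other genes of TGF-beta, BMP and YAP signalling were called in 5 of 23 cases (all genes: 0.777%). Of these 4 were higher and 1 lower, and the list median was 0.08. The 4 that rose were Ankrd1 (0.49 ± 0.10, adjusted p = 0.0196), Ccn2 (0.38 ± 0.09, 0.0369) and Amotl2 (0.22 ± 0.04, 0.00792), which are known YAP targets, and Thbs1, the antiangiogenic matrix protein thrombospondin-1 (0.45 ± 0.08, 0.00704). Thbs1 had 6.25, 6.27, 6.35, 6.37 and 6.43 in the ApoE-KO arrays, and lowest, median and highest levels of 5.86, 6.15 and 6.38 in the ApoE-Stab1-KO arrays, 5.96, 6.21 and 6.33 in the ApoE-Stab2-KO arrays and 5.37, 5.78 and 6.09 in the wildtype arrays. Its ApoE-KO arrays lay above wildtype and those of the double knockouts overlapped it in part. Smad1, a transducer of BMP signals, fell by 0.25 ± 0.04 (0.0015) in all 17 arrays below wildtype, by 0.25 to 0.26 in each plasma. The BMP targets Id2 and Id3 stood at 0.22 ± 0.06 and 0.28 ± 0.08 and did not pass. Ankrd1 lost its call without wildtype replicate 3 (0.0588), 4 (0.0646) or 5 (0.0623), and Ccn2 in 8 fits with 1 array left out (up to 0.129). Without the ApoE-KO group Thbs1 (0.0978), Ankrd1 (0.098) and Ccn2 (0.171) did not pass, and without the ApoE-Stab2-KO group Amotl2 (0.0542) and Ccn2 (0.0703) did not.

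In the list of genes that laminar flow maintains in endothelium 1 of 15 rose and 1 fell, with a median of 0.0047. Cyp1b1, a shear-induced cytochrome P450 that also metabolises estrogens, rose by 0.43 ± 0.07 (adjusted p = 0.00144), with 16 of 17 arrays above wildtype. Nr4a1, an immediate early nuclear receptor, fell by 0.30 ± 0.05 (0.00563) in all 17 arrays. The endothelial nitric oxide synthase Nos3 stood at -0.08 ± 0.03 (0.325) and did not pass. Of 26 matrix and protease genes 1 rose, with a median of 0.02. It was Mmp3, the matrix metalloproteinase stromelysin-1 (0.53 ± 0.08, 0.0014), which had 7.50, 7.58, 7.70, 7.72 and 7.97 in the ApoE-KO arrays. Its lowest, median and highest levels were 7.64, 7.78 and 8.09 in the ApoE-Stab1-KO arrays, 7.61, 7.85 and 8.14 in the ApoE-Stab2-KO arrays and 7.02, 7.31 and 7.54 in the wildtype arrays. A single ApoE-KO array overlapped the wildtype arrays. The collagen Col4a1 stood at -0.18 ± 0.05 (0.0825) and fibronectin Fn1 at 0.16 ± 0.05 (0.112), neither past the test.

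Genes of the ATF4 response, by which cells raise amino acid supply under stress, were higher in part. Of 25 measured genes of this list and of ER stress 4 rose (all genes: 0.486%) and 0 fell. Of the differences 20 were positive, and the median was 0.11. Psat1, an enzyme of serine synthesis, had 8.25, 8.28, 8.45, 8.47 and 8.59 in the ApoE-KO arrays, and lowest, median and highest levels of 8.28, 8.37 and 8.53 in the ApoE-Stab1-KO arrays, 8.32, 8.48 and 8.57 in the ApoE-Stab2-KO arrays and 8.07, 8.12 and 8.20 in the wildtype arrays. All 17 ApoE-deficient arrays were above wildtype, and Psat1 rose by 0.30 ± 0.05 (adjusted p = 0.00344). The transcription factor Atf5 rose by 0.38 ± 0.07 (0.00518), the asparagine synthetase Asns by 0.37 ± 0.08 (0.0221) and the mitochondrial folate enzyme Aldh1l2 by 0.57 ± 0.12 (0.0209). Asns missed the threshold without wildtype replicate 1 (0.0598), 3 (0.0688), 4 (0.0617) or 6 (0.0718), and Aldh1l2 without wildtype replicate 1 (0.0901). Aldh1l2 was also not called without the ApoE-KO group (0.139), nor Asns without the ApoE-Stab2-KO group (0.105). The folate enzymes Mthfd2 and Shmt2 stood at 0.33 ± 0.08 (0.0708) and 0.18 ± 0.05 (0.114) and did not pass.

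Among genes that ATF4 also serves, 1 of 16 amino acid transporters rose, with a median of 0.03, and 1 of 19 aminoacyl-tRNA synthetases, with a median of 0.11. The transporter was Slc1a5, the glutamine carrier ASCT2 (0.30 ± 0.07, adjusted p = 0.028), which lost its call without wildtype replicate 1 (0.0918), 2 (0.0721), 3 (0.0785), 5 (0.0509) or 6 (0.0758). The synthetase was Mars1, for methionine (0.16 ± 0.04, 0.0397), whose call was lost in 15 of the 23 fits with 1 array left out. Among the synthetases 10 of 19 stood higher and 0 lower at an unadjusted p under 0.05, against 5.51% of all genes higher at that threshold. Neither Slc1a5 (0.185) nor Mars1 (0.168) was called without the ApoE-KO group, nor without the ApoE-Stab2-KO group (0.105 and 0.128).

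Retinoid metabolism genes rose in 3 of 20 cases (all genes: 0.486%) and fell in 0, with a median of 0.04. Cyp26b1, which breaks down retinoic acid, had 7.45, 7.93, 8.00, 8.06 and 8.32 in the ApoE-KO arrays, and lowest, median and highest levels of 7.90, 7.95 and 8.24 in the ApoE-Stab1-KO arrays, 8.13, 8.22 and 8.29 in the ApoE-Stab2-KO arrays and 7.34, 7.46 and 7.76 in the wildtype arrays. All but 1 ApoE-KO array were above wildtype, and Cyp26b1 rose by 0.57 ± 0.08 (adjusted p = 0.000485), or 1.48-fold. Dhrs9, a retinol dehydrogenase, had 9.26, 9.28, 9.34, 9.35 and 9.35 in the ApoE-KO arrays, and lowest, median and highest levels of 9.24, 9.32 and 9.50 in the ApoE-Stab1-KO arrays, 9.15, 9.25 and 9.33 in the ApoE-Stab2-KO arrays and 8.86, 9.01 and 9.07 in the wildtype arrays. It did not overlap wildtype and rose by 0.32 ± 0.04 (0.00014). Aldh1a7, an aldehyde dehydrogenase, rose by 0.48 ± 0.10 (0.0205), but not past the threshold without wildtype replicate 2 (0.0712), 3 (0.0527) or 6 (0.0692), or without the ApoE-KO group (0.217). Rdh11 and Dhrs3, both retinal reductases, stood at 0.19 and 0.20 and did not pass.

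In the list of EGF receptor ligands and receptors 3 of 11 genes, all ligands, were called higher (all genes: 0.486%). None was called lower, and the median was 0.07. Ereg, epiregulin, had 7.94, 8.00, 8.07, 8.08 and 8.16 in the ApoE-KO arrays, and lowest, median and highest levels of 7.83, 8.07 and 8.17 in the ApoE-Stab1-KO arrays, 7.91, 8.07 and 8.12 in the ApoE-Stab2-KO arrays and 7.70, 7.76 and 7.79 in the wildtype arrays. No array overlapped, and Ereg rose by 0.30 ± 0.04 (adjusted p = 0.000661), by 0.29 to 0.30 in each plasma. Nrg1, neuregulin 1, rose by 0.28 ± 0.05 (0.00704), with an adjusted p of 0.0968 without the ApoE-KO group. Tgfa, transforming growth factor alpha, rose by 0.21 ± 0.05 (0.0349), a call lost in 8 fits with 1 array left out (up to 0.134), without the ApoE-KO group (0.238) and without the ApoE-Stab2-KO group (0.074).

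Of 21 immediate early genes 2 rose and 2 fell, with a median of -0.035. The AP-1 subunits Fosl1 (0.24 ± 0.05, adjusted p = 0.027) and Jun (0.23 ± 0.05, 0.0181) rose, while the subunit Fosl2 fell by 0.17 ± 0.04 (0.0226), as did Nr4a1. Jun and Fosl2 lost their calls without wildtype replicate 1 (0.0742 and 0.0977) or 5 (0.0571 and 0.0857), Fosl2 also without wildtype replicate 3 (0.0731), and Fosl1 without any wildtype replicate but 1 (0.0604 to 0.0882). With a knockout group left out, Fosl1 did not pass without ApoE-KO (0.0996) or ApoE-Stab1-KO (0.0516), Fosl2 without ApoE-Stab1-KO (0.161) or ApoE-Stab2-KO (0.0856), and Jun without ApoE-Stab2-KO (0.0617).

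Sprr1a, whose promoter is printed above, had 6.27, 6.54, 6.71, 6.73 and 6.88 in the ApoE-KO arrays. At the lowest, the median and the highest array it had 6.00, 6.37 and 7.08 in the ApoE-Stab1-KO arrays, 6.35, 6.54 and 6.83 in the ApoE-Stab2-KO arrays and 5.20, 5.45 and 5.74 in the wildtype arrays. All 17 ApoE-deficient arrays lay above all wildtype arrays. The rise of 1.07 ± 0.11 (adjusted p = 1.08e-05), or 2.10-fold, was the largest of the called genes, and it was 1.16, 0.96 and 1.09 in ApoE-KO plasma, ApoE-Stab1-KO plasma and ApoE-Stab2-KO plasma. Ivl, involucrin of the same envelope and singled out after its value was seen, rose by 0.29 ± 0.05 (0.00227), also with all 17 arrays above wildtype. Psca, a GPI-anchored surface protein first known from prostate, rose by 0.46 ± 0.09 (0.0102), with an adjusted p of 0.0623 without the ApoE-KO group.

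In the hypoxia and glycolysis list 1 of 25 rose and 1 fell, with a median of 0.04. Fbp1, the gluconeogenic fructose-1,6-bisphosphatase, had 6.00, 6.15, 6.15, 6.24 and 6.34 in the ApoE-KO arrays, and lowest, median and highest levels of 6.04, 6.24 and 6.35 in the ApoE-Stab1-KO arrays, 6.06, 6.29 and 6.40 in the ApoE-Stab2-KO arrays and 6.50, 6.54 and 6.83 in the wildtype arrays. All 17 were below wildtype, and Fbp1 fell by 0.38 ± 0.06 (adjusted p = 0.0014). Its paralogue Fbp2 fell by 0.36 ± 0.07 (0.00775). Pfkfb3, which makes the activator of glycolytic phosphofructokinase, rose by 0.22 ± 0.05 (0.0226), but not without wildtype replicate 3 (0.0876) or 4 (0.0794). Of 18 metallothionein and glucocorticoid genes 2 rose, the metal-binding Mt2 (0.35 ± 0.07, 0.0145) and Mt1 (0.20 ± 0.04, 0.0302). Mt2 missed the threshold without wildtype replicate 1 (0.0595) or 5 (0.0631), and Mt1 without wildtype replicate 1 (0.113), 2 (0.0741), 4 (0.0663) or 5 (0.114). The thrombin receptor F2r, the 1 of 13 coagulation genes that was called, rose by 0.18 ± 0.04 (0.0227), but not without wildtype replicate 1 (0.0895), 5 (0.0857) or 6 (0.0718). Without the ApoE-KO group Mt1 (0.203) and Mt2 (0.105) did not pass, and without the ApoE-Stab2-KO group Mt1 (0.0771), Mt2 (0.0548), Pfkfb3 (0.173) and F2r (0.0776) did not, nor without the ApoE-Stab1-KO group Mt1 (0.0526) and F2r (0.0931).

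Among immune receptors and GIMAP genes 1 of 16 rose and 2 fell, with a median of -0.0069. Havcr2, the checkpoint receptor TIM-3, rose by 0.36 ± 0.05 (adjusted p = 0.00103), by 0.58 with ApoE-KO, 0.31 with ApoE-Stab1-KO and 0.19 with ApoE-Stab2-KO plasma, and the F-test among the plasmas just missed (0.0541). Its call was lost without the ApoE-KO group (adjusted p = 0.106). Btnl9, a butyrophilin-like gene, fell by 0.41 ± 0.08 (0.0141), and not past the threshold without wildtype replicate 5 (0.0509) or 6 (0.0506). Gimap6, a GTPase of the immune-associated family, fell by 0.26 ± 0.06 (0.0196), with 0.0514 without wildtype replicate 2 and 0.0568 without replicate 5. Neither Btnl9 (0.069) nor Gimap6 (0.227) passed without the ApoE-KO group.

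Genes of leukocyte adhesion and NF-kB were not called. In that list 0 of 25 passed in limma, with 2 higher and 1 lower at an unadjusted p under 0.05 and a median of 0.03, and the differences ran from -0.13 to 0.18. The adhesion molecule Icam2 stood at -0.13 ± 0.05 and the chemokine Cxcl12 at 0.18 ± 0.06. Likewise 0 of 26 interferon-stimulated genes (2 higher and 3 lower unadjusted), 0 of 35 cell cycle genes (2 higher, 0 lower), 0 of 22 NRF2 targets (1 higher, 0 lower), 0 of 17 p53 targets (3 higher, 2 lower) and 0 of 21 lysosomal genes (0 higher, 1 lower) passed. Their medians were 0.0033, -0.03, -0.025, 0.0029 and -0.02. Among all genes, 10.9% had an unadjusted p under 0.05 in limma, and 5.51% of all genes were higher at that threshold.

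**Figure D4:**
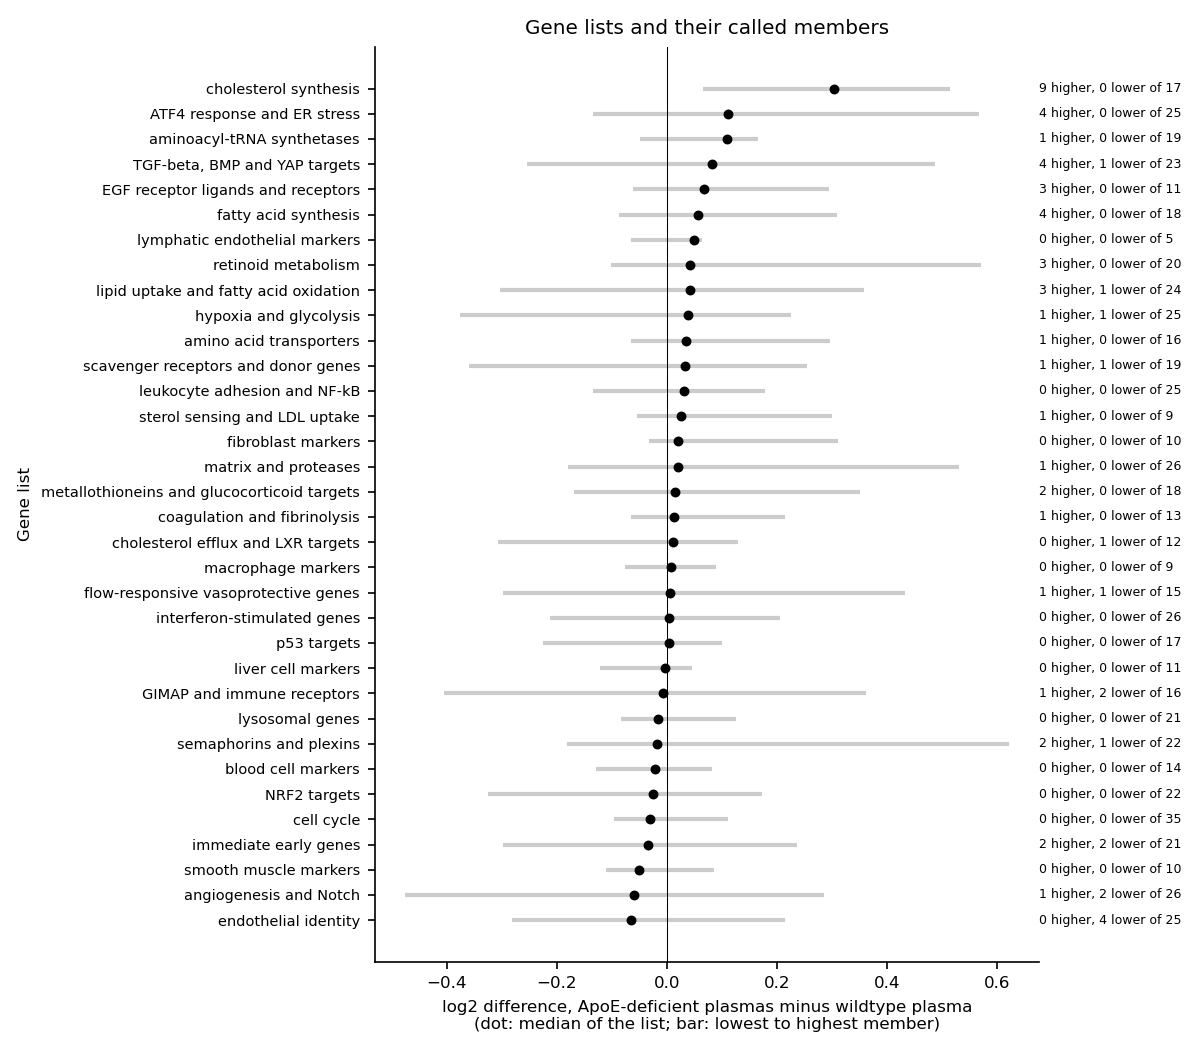
Median difference of each of the 34 gene lists between ApoE-deficient and wildtype plasma (dot, log2, horizontal axis) with a bar from the lowest to the highest member, ordered by median, and the number of members called higher and lower at the right. The cholesterol synthesis list stands highest, at 0.30 with 9 of 17 members called.

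The F-test over the 3 groups called 12 genes (0.0486%), 2336 passed 0.05 without adjustment, and 4 of the 12 were also called against wildtype: Hmgcs1, Dhcr7, Gm16617 and Gm13609. Of the 192 genes called against wildtype 53 (27.6%) passed 0.05 in the F-test without adjustment, against 9.46% of all genes. Both tests share 1 estimate of the spread. Also, 117 of the 120 higher and 69 of the 72 lower genes lay above the median gene. The 27.6% is thus not an independent result about the called genes. A p that misses the threshold does not show that the plasmas act alike. Gm13609, a long non-coding RNA, had 7.03, 7.29, 7.29, 7.53 and 7.61 in the ApoE-KO arrays, and lowest, median and highest levels of 6.76, 7.14 and 7.48 in the ApoE-Stab1-KO arrays, 7.92, 8.03 and 8.21 in the ApoE-Stab2-KO arrays and 7.87, 8.06 and 8.90 in the wildtype arrays. The ApoE-KO and ApoE-Stab1-KO arrays lay below the wildtype arrays and the ApoE-Stab2-KO arrays among them. Its differences from wildtype were -0.82, -1.04 and -0.13 in ApoE-KO plasma, ApoE-Stab1-KO plasma and ApoE-Stab2-KO plasma (F-test adjusted p = 0.0133).

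Gm16617, also a long non-coding RNA, had 3.56, 3.75, 3.93, 3.95 and 4.10 in the ApoE-KO arrays, and lowest, median and highest levels of 3.50, 3.81 and 3.96 in the ApoE-Stab1-KO arrays, 4.36, 4.41 and 4.54 in the ApoE-Stab2-KO arrays and 4.40, 4.43 and 4.88 in the wildtype arrays. Its mean level of 4.16 lay below the median gene at 4.30. The same split was seen, with differences of -0.68, -0.77 and -0.09 in ApoE-KO plasma, ApoE-Stab1-KO plasma and ApoE-Stab2-KO plasma (F-test adjusted p = 0.0031). Although both genes were called in the mean over the 3 plasmas (adjusted p = 0.0031 for Gm13609 and 0.000746 for Gm16617), they were not with the 17 arrays as 1 group (0.145 and 0.116). Gm13609 was also not called without the ApoE-Stab1-KO group (0.0755). Vmn1r127, at -0.67, -1.35 and -0.29 in the 3 plasmas, was called at an adjusted p of 0.0497 and lost its call in 18 of the 23 fits with 1 array left out. The count of 12 depended on single arrays: it was 36 without ApoE-Stab1-KO replicate 1, 19 without ApoE-Stab1-KO replicate 3, 7 without ApoE-Stab2-KO replicate 3 or 6, 6 without ApoE-KO replicate 1, ApoE-Stab1-KO replicate 5 or ApoE-Stab2-KO replicate 2, and 5 without replicate 2 of ApoE-KO or replicate 2 of ApoE-Stab1-KO.

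**Figure D5:**
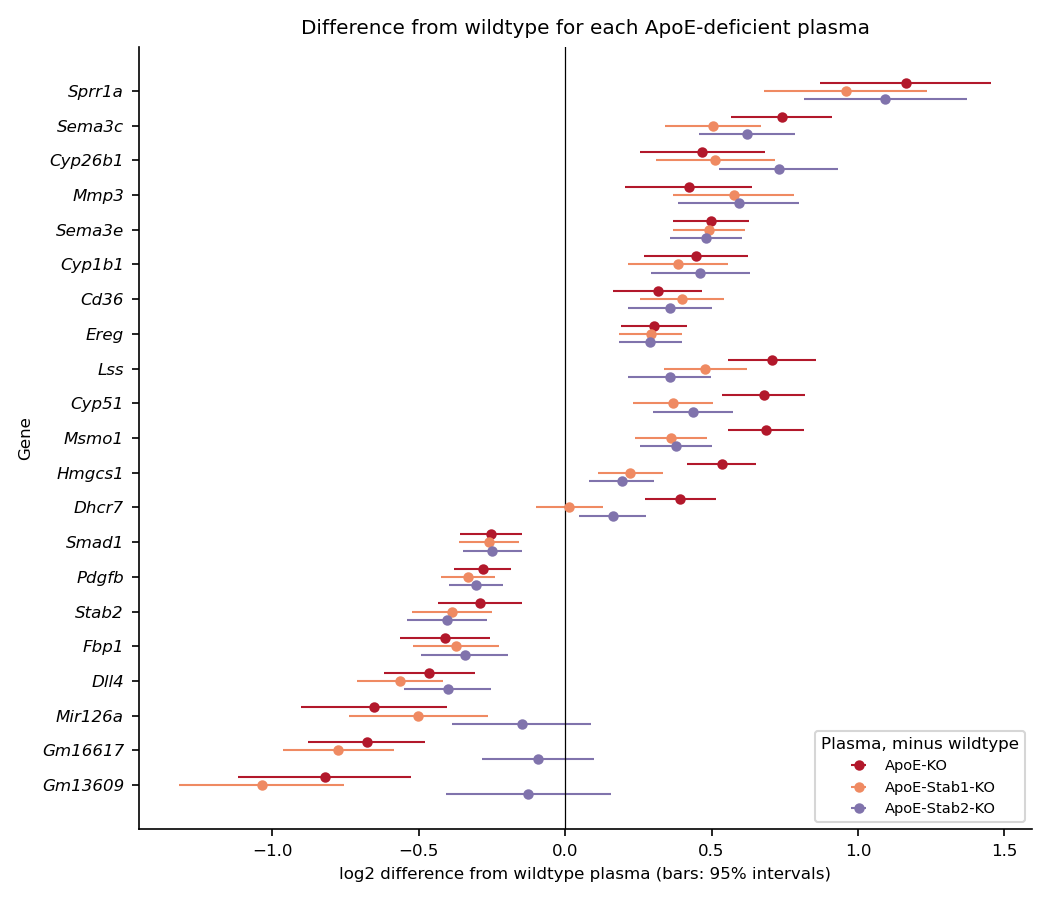
Difference from wildtype plasma of 21 genes (log2, horizontal axis) in ApoE-KO plasma, ApoE-Stab1-KO plasma and ApoE-Stab2-KO plasma, with 95% intervals from the fit; the 3 differences of a gene share the wildtype arrays. Sema3e, Ereg and Smad1 have nearly the same value in each plasma, Hmgcs1 is highest with ApoE-KO plasma, and Gm16617 and Gm13609 lie near 0 with ApoE-Stab2-KO plasma.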

How the data were processed

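Biotin-labelled cRNA from the total RNA of 23 samples of mouse aorta endothelial cells was measured on Affymetrix arrays. The authors deposited 1 table of log2 values for 25428 probe sets, made with RMA per the submitters' processing notes. RMA subtracts background, makes the distributions of the arrays equal and combines the probes of a set, so each difference is relative to other genes on the array. Neither the RMA version nor the annotation build was given in the sources used here. Every other array had 100% of its values on a grid of decimals on which 4.21% of those of ApoE-KO replicate 1 lay.

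Groups came from the sample labels. The platform annotation gave 24705 probe sets 1 symbol, 0 several and 723 none. Where a symbol stood on several probe sets the brighter was kept, which left 24704 genes, of which 24669 matched RefSeq on GRCm38.p6, 19683 as protein-coding. Limma 3.58.1 in R 4.3.3 was fitted to the deposited log2 values with 1 mean per group (lmFit, eBayes without trend or robust settings, 19 residual and 4.19 prior degrees of freedom) and no filter on dim genes. The contrast was the mean of the 3 knockout means minus the wildtype mean, and a moderated F-test compared the 3 knockout groups. Adjusted p-values are Benjamini-Hochberg over 24704 genes, and genes under 0.05 are called higher or lower. Errors of differences are standard errors of this fit. The number of arrays limits the precision. The fit was tested on simulated data. Python 3.11.15 with matplotlib 3.10.9 drew the figures.

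The comparison, the 34 gene lists (605 of 643 distinct genes measured) and the tests were chosen with earlier results of these data known. Named were the 15 highest and 15 lowest called genes by log2 difference (no Gm, Riken, LOC, Mir or Snor names), the 10 smallest p, up to 10 genes of the F-test, Apoe, Stab1, Stab2, Tgfbi, Postn and Reln, the called list members and up to 4 further members of a list by smallest p. Mir126a, Ivl, Krt19, Krt20, Il24, Adam8, Idh1, Tmem97, Acot2, Mfng, Itga4, Ptprm, Ldb2, Efna1, Efnb2 and Igfbp3 were picked with their values in view. The alternatives tried were quantile normalization again, centring, genes above the median level, array weights, eBayes with trend and robust settings, a block for the replicate number, probe sets tested singly, the 17 arrays as 1 group, protein-coding genes, a fold of at least 1.2, each knockout group left out, and each array left out.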

Additional observations from a re-analysis of the deposited data

Results flagged for a closer look

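The moderated F-test among the 3 ApoE-deficient plasmas called 12 genes, and the 10 with the smallest p are given here. Mir1896 (adjusted p = 0.00193) differed from wildtype by -0.52, -0.83 and 0.42 with ApoE-KO plasma, ApoE-Stab1-KO plasma and ApoE-Stab2-KO plasma, and its mean difference from wildtype was not called. Ecsit (0.0181) stood at -0.09, -0.30 and 0.23, Gm34921 (0.032) at -0.36, -0.51 and 0.18, and the pseudogene Rpl36-ps3 (0.0481) at -0.28, -0.45 and 0.12, also with opposite signs in ApoE-Stab1-KO and ApoE-Stab2-KO plasma. 2610020C07Rik (0.0131) stood at -0.27, -0.62 and 0.04, and Aph1b (0.0313) at 0.02, 0.24 and -0.07. Mean levels were low for Gm34921 (3.97) and Mir1896 (4.35), beside a median gene at 4.30. Gm16617 (0.0031), Gm13609 (0.0133), Hmgcs1 (0.0181) and Dhcr7 (0.0181) are described with their values per array above.

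Single arrays lay far from the rest of their group in 31 of 572 groups of arrays examined, over 143 genes. Chance flags about 1 in 20 groups. Wildtype replicate 1 was apart in 7 genes: low for Aldh1l2 (4.746, others 5.313 to 5.531) and Krt19 (4.933), high for Vmn1r127 (7.969, others 6.458 to 6.955), Gm13609 (8.896, others 7.868 to 8.156), Plxnd1 (11.01), Fosl1 (9.377) and Col4a1 (10.44). Among the other wildtype arrays, replicate 2 was high for Fbp1 (6.833), replicate 4 low for Pfkl (9.219), and replicate 5 low for Lpl (4.056) and high for Krt20 (9.408).

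In ApoE-KO arrays, replicate 1 was high for Abca1 (8.37, others 7.729 to 7.893) and Btnl9 (7.568), replicate 2 low for Vmn1r127 (5.679) and Rsad2 (5.919), replicate 3 high for Ccn2 (7.958) and Reln (3.524), and replicate 5 high for Slc1a5 (7.806), Adam8 (7.693) and Nos3 (11.53). In ApoE-Stab1-KO arrays, replicate 1 was high for Cyp26b1 (8.242), replicate 3 low for Cldn5 (10.57) and Rpl36-ps3 (10.99), and replicate 5 high for Notch4 (9.691). In ApoE-Stab2-KO arrays, replicate 2 was high for Lss (7.659) and Sc5d (9.498), replicate 3 for Lpl (5.593, others 4.698 to 4.925) and Apoe (5.414), replicate 4 for Cd36 (10.59), and replicate 5 high for Fads1 (10.28) and low for Pfkfb3 (6.299).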

How the results depend on the processing

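The count of genes called against wildtype was 192, and it was 94 (56 higher, 38 lower) with a fold of at least 1.2, 81 (43 higher, 38 lower) without the ApoE-KO group and 105 (66 higher, 39 lower) without the ApoE-Stab2-KO group. Leaving out each array in turn gave 102 to 234 genes, 63 to 137 of them higher and 38 to 97 lower. The count of genes that differed among the 3 plasmas was 12, and it was 23 with array weights, 4 over protein-coding genes, 7 with the replicate block, and 5 to 36 with each array left out. The labels do not say whether the replicate numbers pair the samples. Over 33 pairs of arrays with the same number the correlation of their deviations was -0.10 to 0.11 (median 0.012), 1 of them over 0.1. Over 165 pairs with different numbers it was -0.21 to 0.24 (median -0.0031). Of the arrays, 6 correlated best with their own number. Correlations over all genes, most of them uncalled, cannot exclude a pairing. With the replicate block 141 genes were called against wildtype, 90 higher and 51 lower. Of the 93 called genes named in the text, 59 kept their call with every array left out in turn, while 34 lost it at least 1 time, at most 27 of them in 1 fit (without wildtype replicate 5). Without the ApoE-KO group 38 of the 93 lost it, without the ApoE-Stab1-KO group 12 and without the ApoE-Stab2-KO group 28. Of the genes not called, Ecsit turned to 0.071 and Aph1b to -0.028 without the ApoE-Stab1-KO group, and Tgfbi ran from -0.049 to 0.0057 as each array was left out. The cause of these changes was not tested. The median difference over all genes was 0.0018 as deposited, 0.0018 after quantile normalization again and 0.0017 after centring.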

Other observations

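The genes of this paragraph lie outside the lists and were picked with their values in view. The keratins Krt19 and Krt20 rose by 0.28 ± 0.05 (adjusted p = 0.00227) and 0.26 ± 0.04 (0.00344). Krt19 ran from 5.14 to 5.56 in the ApoE-deficient arrays, against 4.93 to 5.14 in the wildtype arrays, with all 17 above the highest wildtype array. Krt20 ran from 9.27 to 9.64 in the ApoE-deficient arrays, against 9.16 to 9.41 in wildtype arrays, and 14 of 17 were above. The metalloprotease Adam8 rose by 0.36 ± 0.07 (0.0119), and the cytokine Il24, of the IL-10 family, by 0.37 ± 0.08 (0.0287). Adam8 lost its call without wildtype replicate 5 (0.0547), and Il24 without wildtype replicate 3 (0.107), 4 (0.056), 5 (0.0857) or 6 (0.0708). Among lipid genes outside the lists, the mitochondrial acyl-CoA thioesterase Acot2 rose by 0.34 ± 0.04 (0.000215) in all 17 arrays above wildtype. Tmem97, a sterol-responsive membrane protein, rose by 0.34 ± 0.07 (0.0226), and the cytosolic isocitrate dehydrogenase Idh1 by 0.25 ± 0.05 (0.0104). Tmem97 missed the threshold without wildtype replicate 1 (0.0918) or 2 (0.0721). Without the ApoE-KO group, Idh1 (0.0986), Tmem97 (0.127), Adam8 (0.0781) and Il24 (0.0699) all missed it. Without the ApoE-Stab1-KO group Tmem97 (0.056) and Il24 (0.0622) did so, and without the ApoE-Stab2-KO group Il24 (0.0646).

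Further called genes outside the lists fell. Ptprm, Ldb2, Efna1, Efnb2, Itga4 and Igfbp3 were also picked with their values in view. The others of this paragraph are among the 15 lowest called genes by log2 difference. Ptprm, a phosphatase of endothelial junctions, ran from 9.84 to 10.09 in the ApoE-deficient arrays, against 10.19 to 10.44 in the wildtype arrays, and fell by 0.29 ± 0.04 (adjusted p = 0.000176). Ldb2, a cofactor of LIM-domain transcription factors, fell by 0.31 ± 0.05 (0.00356), with levels of at least 8.61 in ApoE-deficient arrays, against 9.05 to 9.21 in wildtype arrays. The ephrins Efna1 and Efnb2, contact ligands of Eph receptors of which Efnb2 marks arterial endothelium, fell by 0.22 ± 0.04 (0.00821) and 0.19 ± 0.04 (0.0141). All 17 ApoE-deficient arrays were below wildtype in these 4 genes. Without the ApoE-Stab2-KO group the adjusted p of Efnb2 was 0.0665 and that of Itga4 0.122. The integrin subunit Itga4 fell by 0.24 ± 0.04 (0.0073), and the homeobox gene Hlx by 0.35 ± 0.06 (0.00186). Igfbp3, a secreted binder of insulin-like growth factors, fell by 0.29 ± 0.06 (0.0217), but not past the threshold without wildtype replicate 1 (0.0581), 2 (0.0566), 5 (0.0569) or 6 (0.0593), or without the ApoE-Stab2-KO group (0.0617). Nwd1, Ttyh1 and the GTPase Gem fell by 0.48 ± 0.07 (0.000287), 0.34 ± 0.06 (0.003) and 0.33 ± 0.06 (0.0031). Called lower with less stable calls were Fat4 (-0.31 ± 0.07, 0.021), Mpp3 (-0.32 ± 0.07, 0.0235), Fam193b (-0.34 ± 0.07, 0.0145), Cstad (-0.35 ± 0.08, 0.0416) and Hoxb5os (-0.36 ± 0.08, 0.0408). Fat4 missed the threshold without wildtype replicate 1 (0.089), 4 (0.0581) or 5 (0.0685), Mpp3 without wildtype replicate 1 (0.0893), 2 (0.0566), 3 (0.0528) or 6 (0.0838), and Fam193b without wildtype replicate 1 (0.0595) or 5 (0.0559). Cstad and Hoxb5os missed it in 16 and 15 of the 23 fits with 1 array left out. Mpp3 (0.0724), Cstad (0.221) and Hoxb5os (0.139) were not called without the ApoE-KO group. Fat4 (0.0583) and Cstad (0.0729) were not called without the ApoE-Stab1-KO group. Fat4 (0.0646), Mpp3 (0.0556), Fam193b (0.0636) and Hoxb5os (0.118) were not called without the ApoE-Stab2-KO group.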
